A study of Mus musculus with 8 samples.

Results

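The follistatins, activin and TGF-beta ligands were examined as a set of 10 genes of the transforming growth factor beta (TGF-beta) superfamily, selected by name from 49492 rows of the deposited table: Fst, Fstl1, Fstl3, Inhba, Tgfb1, Tgfb2, Tgfb3, Bmp4, Grem1 and Smad7. The set was chosen on earlier results of these data, in which Fst stood among the largest decreases under glucose starvation. The change of the 10 genes from normal medium to starvation is therefore given as a description with no test. The difference between the starved lines and the interaction were tested for the 9 genes other than Fst. The difference of Fst between the lines in normal medium is likewise given as a description. The libraries came from mouse embryonic fibroblasts (MEFs), connective tissue cells cultured from embryos. The study asked which transcripts depend on methylated Pontin, an ATPase of chromatin remodelling complexes, when glucose is withdrawn.

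Both genotypes were built on Pontin f/f MEFs made by the 3T3 protocol, in which a Cre virus deletes the endogenous gene. One line stably expressed Flag-tagged Pontin WT, delivered by lentivirus and selected with hygromycin. The other expressed in the same way the form RA, in which both methylated arginines are alanine. Each line was kept in normal medium or under glucose starvation, in glucose-free medium with dialyzed serum, and each of the 4 groups had 2 replicates. The duration of starvation for these libraries is not given in the sources used here. Since WT and RA are 2 stably expressing lines, the line and the Pontin form cannot be told apart. The methods state in general that experiments were independent, but neither they nor the labels say whether the replicates of these libraries were separate cultures. The p-values then measure only the spread between these samples, which may be technical. In bulk RNA, fewer cells of a type and less RNA per cell cannot be told apart.

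Between 43205841 and 56363034 reads were recovered per library, and values are CPM, reads relative to a library size that the authors scaled. A count of 3 reads was worth 0.0548 to 0.069. All 10 genes were above 1 in all 8 libraries, the lowest value being 2.62 for Bmp4, so none entered the 16232 tested genes through a single group. Ruvbl1, which encodes Pontin, stood at 27.6 to 28.4 in both media in WT, at 32.0 to 36.8 in RA in normal medium and at 42.9 to 45.0 in starved RA. The fibroblast label was checked against 10 markers, 9 of which passed the filter on low values. Their summed level was 10010 to 10090 in WT and 9918 to 10250 in RA in normal medium, against 5313 to 5406 in starved WT and 7042 to 7059 in starved RA. The sum of 6 leukocyte markers, with the pan-leukocyte gene Ptprc at or under 3 reads in every library, was 21.0 to 21.6 in WT in normal medium, 25.0 to 26.1 with starvation, and 23.9 to 24.8 over both media in RA. The sum of 5 epithelial markers, with Krt5 at or under that floor, was 1.44 to 2.12 in WT over both media, 1.84 to 1.94 in RA in normal medium and 2.68 to 3.21 in starved RA. For 3 muscle markers it was at most 0.217, with Myod1 and Myog at or under the floor. For 4 endothelial markers the sum was 2.02 to 3.43 in normal medium, 8.92 to 9.43 in starved WT and 5.99 to 6.34 in starved RA. In WT, Kdr (mean 1.997 in normal medium, 6.39 starved) and Tek (0.273, 2.69) were higher under starvation, while Pecam1 (0.39, 0.0693) and Cdh5 (0.295, 0.021) were lower. The sum of 3 neural markers, 70.0 to 80.7 in normal medium and 10.5 to 20.2 under starvation, was nearly all Tubb3, with Gfap at 0.345 to 0.706 in every library and Sox2 at or under the floor. The fibroblast and endothelial sums and Tubb3 moved with the medium in both lines, the leukocyte sum in WT and the epithelial sum in RA. The leukocyte sum mixed opposite moves. Starved Cd14 lay below its level in normal medium (WT mean 1.075 against 7.62, RA mean 2.67 against 7.45). Starved Csf1r lay above (WT 19.7 against 10.8, RA 18.6 against 14.0), and Cd68 was higher in starved WT only. With starvation, 7 of 9 tested fibroblast markers were lower in WT and 1 higher (limma adjusted p under 0.05). In RA 5 were lower and 2 (Fn1 and Dcn) higher. Of all tested genes 78.6% were called in WT, 39.2% lower and 39.3% higher. In RA 68.7% were called, 33.7% lower and 35% higher. Ruvbl1 differed between the lines. The part of these values in the results was not tested.

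Ligands of the TGF-beta superfamily are secreted dimers that bind type I and type II receptor kinases at the cell surface. Activins and TGF-betas signal through one group of Smad proteins and bone morphogenetic proteins (BMPs) through another, and the receptor-activated Smads enter the nucleus with Smad4. Secreted antagonists such as follistatin hold ligands away from their receptors, and the inhibitory Smads block the signal inside the cell. In fibroblasts the pathway is best known for the control of extracellular matrix and of growth.

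The genes lie on 9 autosomes in the GENCODE M21 annotation of GRCm38, which was used for positions and exon lengths only, since the authors mapped to mm9. Fst (ENSMUSG00000021765.9) lies at chr13:114452290-114458951 on the minus strand and Inhba at chr13:16011851-16031621 on the plus strand of the same chromosome. Grem1 lies at chr2:113746164-113758646 on the minus strand, Tgfb2 at chr1:186622792-186705989 on the minus strand and Fstl1 at chr16:37776873-37836514 on the plus strand. Tgfb1 lies at chr7:25687002-25705077 on the plus strand and Bmp4 at chr14:46383520-46390669 on the minus strand, and all 10 genes are annotated as protein-coding. Fstl3 (chr10:79777272-79782630, plus strand) shares 1157 exon bases, 47.3% of its own, with Prss57 on the opposite strand. The library kit does not mark strand, so reads of Fstl3 and Prss57 cannot be told apart there and the values of Fstl3 are uncertain. Tgfb3 (chr12:86056745-86079041, minus strand) shares 257 exon bases (7.6% of its own) with Gm48008 and 163 (4.8%) with Gm37804, both on the opposite strand. Reads from those bases cannot be told apart either. Opposite-strand genes also share 2.5% of the exon bases of Fst, 2.1% of Tgfb2 and 4.0% of Bmp4. Tgfb3 overlaps the span of Ttll5 on the opposite strand without a shared exon base. Ttll5 had means of 29.9 and 14.9 in WT and 29.5 and 31.4 in RA, in normal medium and under starvation.

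RefSeq promoter windows (GRCm38.p6) matched 7 of the 10 genes, the exceptions being Fst, Tgfb3 and Smad7. The 250 bases before the start were searched on both strands for the SMAD box (CAGAC), the FOXO motif (TGTTTAC), the TATA motif (TATAAA) and the E-box (CACGTG). No match overlapped another. The SMAD box was in 3 of 7 windows against 42.2% of 32851 windows of the same length, the TATA motif in 3 of 7 against 12.4%, the E-box in 2 of 7 against 6.0% and the FOXO motif in 0 of 7 against 3.2%. Shown are Inhba (chr13:16011601-16011850, plus strand) and Grem1 (chr2:113758649-113758898, minus strand), whose levels differed strongly between the starved lines, beside Tgfb2 (chr1:186705990-186706239, minus strand), whose levels did not pass that test. Capitals mark the motifs, which are the TATA motif 91 bases before the start of Inhba, the SMAD box at 219 in Grem1, and in Tgfb2 the SMAD boxes at 221 and 204, the E-box at 51 and the TATA motif at 31.
Inhba: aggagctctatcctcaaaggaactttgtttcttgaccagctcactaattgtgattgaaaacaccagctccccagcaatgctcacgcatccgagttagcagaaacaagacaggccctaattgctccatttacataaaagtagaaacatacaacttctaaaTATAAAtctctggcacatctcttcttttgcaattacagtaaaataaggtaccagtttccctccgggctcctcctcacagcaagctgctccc
Grem1: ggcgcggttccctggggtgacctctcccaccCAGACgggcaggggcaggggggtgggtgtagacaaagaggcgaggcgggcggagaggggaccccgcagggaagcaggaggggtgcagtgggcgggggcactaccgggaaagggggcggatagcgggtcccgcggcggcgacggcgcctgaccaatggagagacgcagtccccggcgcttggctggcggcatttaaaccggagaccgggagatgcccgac
Tgfb2: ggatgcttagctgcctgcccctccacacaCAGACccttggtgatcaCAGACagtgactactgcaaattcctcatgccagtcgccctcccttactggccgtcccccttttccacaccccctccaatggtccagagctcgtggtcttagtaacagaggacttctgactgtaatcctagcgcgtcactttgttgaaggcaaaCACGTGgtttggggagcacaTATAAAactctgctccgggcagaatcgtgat

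Follistatin, encoded by Fst, binds activin almost irreversibly and also binds several BMPs and myostatin. Fst stood at 131 and 134 in WT in normal medium and at only 3.10 and 3.22 in the starved WT libraries. The RA libraries held 154 and 160 in normal medium and 15.9 and 17.1 under starvation. Both lines were far lower when starved, and the starved RA libraries lay above the starved WT libraries with no overlap. The mean was 42.1-fold lower in starved WT than in WT in normal medium, and 9.53-fold lower in RA. On the log2(value + 1) scale, which understates the change of low values, the differences were -5.01 (SE 0.057) in WT and -3.18 (SE 0.057) in RA. Among 16232 genes this was the lowest difference in WT and at place 5 from the lowest in RA. The starved WT values rested on 148 and 176 reads, well above the floor. Starved RA exceeded starved WT 5.22-fold, a log2 difference of 2.07 (95% interval 1.95 to 2.19), and the response in RA less that in WT was 1.83 (1.66 to 2.002). These values belong to the comparison that chose Fst and carry no p. The fall that chose Fst was measured from the control libraries, so a comparison of these between the lines is not independent of that choice. As a description, Fst in normal medium was 1.18-fold higher in RA (log2 difference 0.24, SE 0.057). Over 16 alternatives that difference ran from 0.191 to 0.27. It did not pass the threshold used for calls under every alternative.

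**Figure D1:**
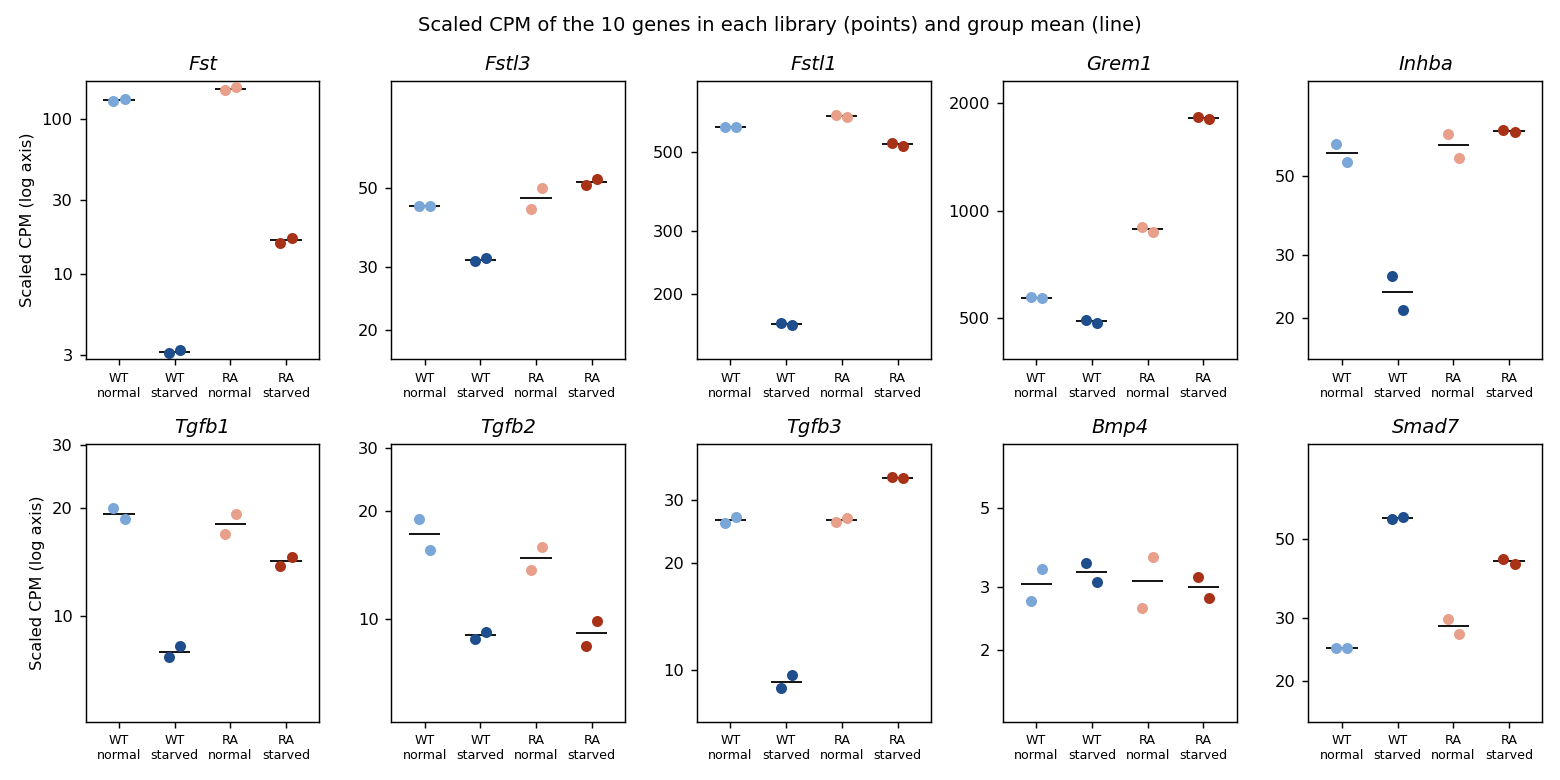
CPM of the scaled library size (log axis) of the 10 genes in each of the 8 libraries, with 2 points per group and a line at the group mean. Fst stands at 3.10 and 3.22 in starved WT against 15.9 and 17.1 in starved RA, and Grem1 reaches 1810 and 1828 in starved RA.

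Fstl3 encodes a secreted follistatin-like protein that also binds activin and myostatin. Fstl3 was 44.4 and 44.3 in WT kept in normal medium, 31.2 and 31.7 in starved WT, 43.7 and 49.7 in RA in normal medium and 50.7 and 52.8 in starved RA. The starved WT libraries were the lowest and the starved RA libraries the highest. Starvation differences were -0.48 (SE 0.059) in WT and 0.15 (SE 0.059) in RA. Under starvation RA exceeded WT by 0.70 (SE 0.059, limma adjusted p = 2.01e-08), and the interaction, the RA response minus the WT response, was 0.63 (SE 0.083, adjusted p = 9e-06). Prss57, with which Fstl3 shares exon bases, had means of 27.6 and 19.7 in WT and 29.8 and 33.7 in RA.

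Fstl1 encodes an abundant secreted glycoprotein of mesenchymal cells, related to follistatin in sequence and able to bind BMP4. Its values were 588 and 589 in WT kept in normal medium, 166 and 164 in starved WT, 634 and 626 in RA in normal medium and 531 and 519 in starved RA. The starved WT libraries stood far below every other library. The mean was 3.57-fold lower in starved WT (log2 difference -1.83, SE 0.035) and 1.2-fold lower in starved RA (-0.26, SE 0.035). Starved RA exceeded starved WT by 1.67 (95% interval 1.59 to 1.74, limma adjusted p = 1.36e-16) and the interaction was 1.57 (SE 0.050, adjusted p = 1.34e-13). In normal medium the groups did not overlap, but the difference of 0.10 (0.02 to 0.17) did not pass the test (adjusted p = 0.0918).

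Grem1 encodes gremlin, a secreted antagonist of BMP2, BMP4 and BMP7. Grem1 stood at 575 and 569 in WT kept in normal medium, 495 and 486 in starved WT, 902 and 875 in RA in normal medium and 1828 and 1810 in starved RA. No pair of groups overlapped, and starvation went with a lower level in WT and a higher level in RA. The differences were -0.22 (SE 0.038) in WT and 1.03 (SE 0.038) in RA, with a mean 2.05-fold higher in starved than in control RA. RA exceeded WT in both media, by 0.63 (SE 0.038, limma adjusted p = 3.25e-09) in normal medium and by 1.89 (SE 0.038, adjusted p = 6.29e-17) under starvation. The interaction was 1.26 (SE 0.053, adjusted p = 6.79e-12).

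Inhba encodes the beta A subunit, which forms activin A as a homodimer. Inhba was 61.1 and 54.7 in WT kept in normal medium, 26.2 and 21.0 in starved WT, 65.5 and 56.2 in RA in normal medium and 67.0 and 66.1 in starved RA. The starved WT libraries were the lowest, and the groups in normal medium overlapped. The starvation difference was -1.27 (SE 0.084) in WT and 0.13 (SE 0.084) in RA. Under starvation RA exceeded WT 2.82-fold (log2 difference 1.47, SE 0.084, limma adjusted p = 1.61e-10), the interaction was 1.40 (SE 0.119, adjusted p = 6.09e-08), and in normal medium the difference was 0.07 (95% interval -0.11 to 0.25, adjusted p = 0.668).

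The ratio of the antagonist to its ligand was read within each library, per kilobase of exon, where the scaling of libraries cancels. Per kilobase, Fst stood at 2.99 and 3.42 times Inhba in WT in normal medium and at 3.27 and 3.98 times in RA. Under starvation the ratio was 0.165 and 0.213 in WT and 0.33 and 0.36 in RA. The level of Fst per kilobase was thus above that of Inhba in all 4 libraries in normal medium and below it in all 4 starved ones. The ratio of Fst to Fstl3 per kilobase was 1.58 and 1.62 in WT kept in normal medium, 0.053 and 0.054 in starved WT, 1.87 and 1.72 in RA in normal medium and 0.167 and 0.172 in starved RA. These ratios rest on the starvation values of Fst and are a description.

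Tgfb1, Tgfb2 and Tgfb3 encode the TGF-beta isoforms, which are secreted in a latent complex. Tgfb3 stood at 25.8 and 26.9 in WT kept in normal medium, 8.93 and 9.68 in starved WT, 26.1 and 26.7 in RA in normal medium and 34.7 and 34.6 in starved RA. It was thus near equal in both lines in normal medium, lowest in starved WT and highest in starved RA. The starvation differences were -1.41 (SE 0.066) in WT and 0.38 (SE 0.066) in RA, and RA exceeded WT under starvation by 1.79 (SE 0.066, limma adjusted p = 3.79e-13), with an interaction of 1.79 (SE 0.094, adjusted p = 1.13e-10). The difference in normal medium was 0.00 (95% interval -0.14 to 0.14, adjusted p = 0.979).

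Tgfb1 stood at 19.96 and 18.6 in WT kept in normal medium, 7.65 and 8.20 in starved WT, 16.9 and 19.2 in RA in normal medium and 13.8 and 14.6 in starved RA. Both starved groups lay below their controls, WT further than RA, with differences of -1.19 (SE 0.085) and -0.33 (SE 0.085). Starved RA exceeded starved WT by 0.77 (SE 0.085, limma adjusted p = 6.94e-07) and the interaction was 0.86 (SE 0.121, adjusted p = 1.86e-05).

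Tgfb2 did not pass the test between the lines. Its values were 19.0 and 15.6 in WT kept in normal medium, 8.78 and 9.19 in starved WT, 13.7 and 15.9 in RA in normal medium and 8.36 and 9.85 in starved RA. Starvation differences were -0.87 (SE 0.107) in WT and -0.64 (SE 0.107) in RA. The difference between the starved lines was 0.01 (95% interval -0.21 to 0.24, limma adjusted p = 0.918) and the interaction 0.23 (-0.09 to 0.55, adjusted p = 0.228).

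Bmp4, a ligand of the BMP branch that gremlin binds, had the lowest values of the set in normal medium. It stood at 2.74 and 3.39 in WT kept in normal medium, 3.52 and 3.11 in starved WT, 2.62 and 3.64 in RA in normal medium and 3.21 and 2.81 in starved RA. The groups all overlapped, on 114 to 188 reads per library. The difference between the starved lines was -0.10 (95% interval -0.40 to 0.19, limma adjusted p = 0.535) and the interaction -0.12 (-0.55 to 0.30, adjusted p = 0.636). Differences within those intervals are not excluded at this depth and replication.

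**Figure D2:**
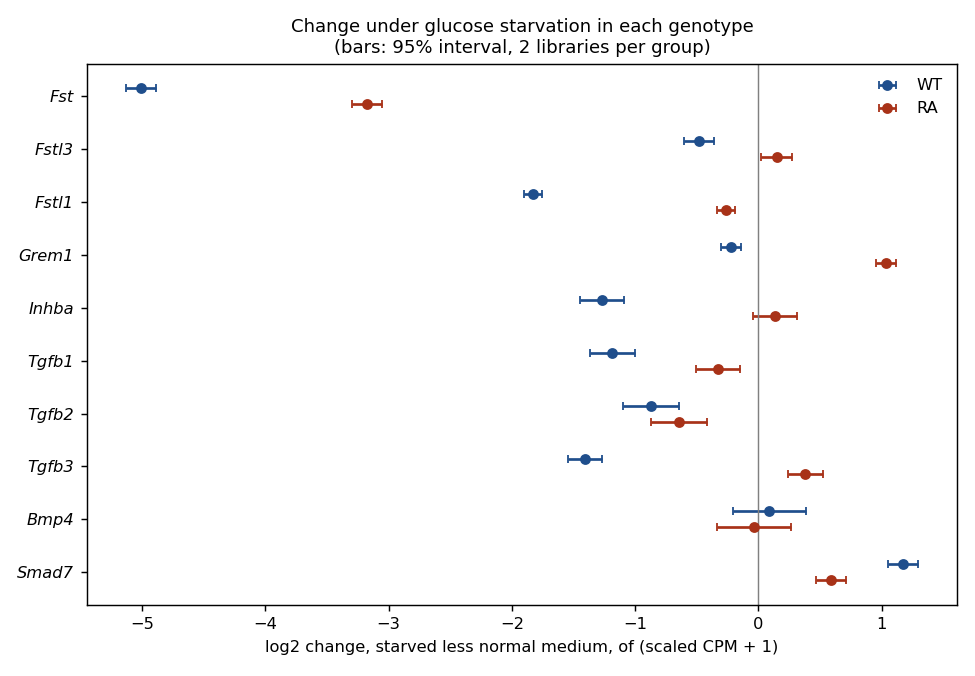
Change under glucose starvation of the 10 genes in WT and in RA, as log2 of (scaled CPM + 1), with points at the difference of group means and bars for the 95% interval (2 libraries per group). Fst stands at -5.01 in WT and -3.18 in RA, and the WT and RA intervals overlap for Tgfb2 and Bmp4 only.

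Smad7, an inhibitory Smad induced by TGF-beta that blocks the type I receptor, stood above its controls in both starved lines. Smad7 stood at 24.7 and 24.8 in WT kept in normal medium, 56.8 and 57.4 in starved WT, 29.9 and 27.1 in RA in normal medium and 44.0 and 42.5 in starved RA. The starvation differences were 1.17 (SE 0.057) in WT and 0.59 (SE 0.057) in RA. Under starvation RA was below WT (log2 difference -0.39, SE 0.057, limma adjusted p = 1.4e-05) and the interaction was -0.59 (SE 0.080, adjusted p = 1.4e-05). In normal medium RA exceeded WT by 0.19 (SE 0.057, adjusted p = 0.0411), a call held by 3 of 16 alternatives, with adjusted p from 0.0164 to 0.218.

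In normal medium 3 of the 10 genes were called between the lines at an adjusted p under 0.05, all with RA higher (Grem1, Fst and Smad7). Of all tested genes 9.63% were called there, 6.68% with RA higher and 2.95% with RA lower. Fst is in this count as a description only, since the fall that chose it was measured from the same control libraries. The genes not called there were Fstl1, Inhba and Tgfb3 as given above, Fstl3 (0.07, 95% interval -0.05 to 0.20, limma adjusted p = 0.499), Tgfb1 (-0.09, -0.27 to 0.09, adjusted p = 0.549), Tgfb2 (-0.21, -0.44 to 0.01, adjusted p = 0.233) and Bmp4 (0.02, -0.28 to 0.32, adjusted p = 0.955). Only 1 of the 10, Grem1, was called without the filter on low values, without WT replicate 1 or without WT replicate 2. Under starvation 7 of the 9 genes other than Fst were called, 6 with RA higher and 1 (Smad7) with RA lower, against 62.9% of all tested genes, 30.8% higher and 32.1% lower. The median of the 9 was 0.77 beside -0.01 over all tested genes. The interaction was called for the same 7 of 9, 6 positive and 1 negative, against 50.6% of all tested genes, 24.5% positive and 26.1% negative, with a median of 0.86 beside -0.01. The 9 genes share libraries across these comparisons, and the starved comparison and the interaction rest on the same starved libraries.

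For starvation against normal medium, which the choice of the set used, the same threshold serves only to describe the 10 genes and is no test of them. It was passed in WT by 9 of 10, 8 lower and 1 higher, beside 78.6% of all tested genes, 39.2% lower and 39.3% higher. In RA it was passed by 8 of 10, 4 lower and 4 higher, beside 68.7%, of which 33.7% lower and 35% higher. Nothing is read from these counts. The median of the 10 was -1.03 in WT and 0.05 in RA, beside 0.01 and 0.01 over all tested genes.

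**Figure D3:**
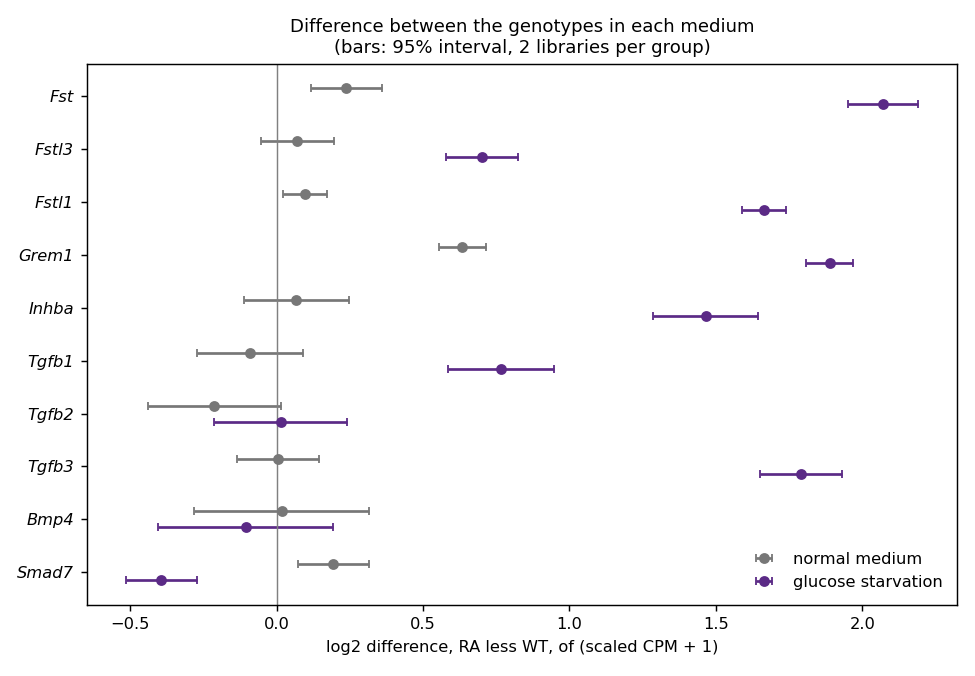
Difference between RA and WT of the 10 genes in normal medium and under glucose starvation, as log2 of (scaled CPM + 1), with bars for the 95% interval (2 libraries per group). In normal medium the differences lie between -0.21 and 0.63, and under starvation 7 of the 10 genes lie at 0.70 or above while Tgfb2 stands at 0.01, Bmp4 at -0.10 and Smad7 at -0.39.

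Levels were compared between genes only after division by exon length, as CPM per kilobase of merged GENCODE exons. In WT in normal medium Grem1 (138) and Fstl1 (120) led, followed by Fst (29.0), Fstl3 (18.1), Inhba (9.06), Tgfb3 (7.78), Smad7 (5.48), Tgfb1 (3.83), Tgfb2 (2.99) and Bmp4 (1.36). The same order was found in RA in normal medium, from 214 for Grem1 to 1.39 for Bmp4. No neighbours in these orders overlapped between replicates. In starved WT, Fst was last at 0.688 per kilobase, Smad7 stood directly below Fstl3 at 12.6, and the neighbours Tgfb1 (1.57), Tgfb2 (1.55) and Bmp4 (1.47) overlapped. In starved RA, Fst stood at 3.59, between Smad7 (9.57) and Tgfb1 (2.81), and Grem1 led at 439.

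The rest of the pathway was described from lists of genes written from general knowledge. Each list is read against the share of all tested genes called, which was 39.3% higher and 39.2% lower in WT, 35% and 33.7% in RA, and 24.5% positive and 26.1% negative for the interaction. Besides Inhba, the TGF-betas and Bmp4, 9 of 28 other ligands passed the filter on low values. In WT 4 of them rose and 5 fell under starvation, in RA 5 rose and 3 fell, and the interaction was positive for 3 and negative for 1, where 78.6%, 68.7% and 50.6% of all tested genes were called in either direction. Inhbb, which encodes the beta B subunit of activin, was 3.85 and 4.31 in WT kept in normal medium, 1.57 and 1.68 in starved WT, 5.66 and 5.66 in RA in normal medium and 9.17 and 10.04 in starved RA. Like Inhba it was lowest in starved WT. The interaction of Inhbb was 1.62 (limma adjusted p = 3.1e-07). Gdf11, a ligand of the activin receptors, fell in both lines, by 1.91 in WT and by 1.06 in RA on the log2 scale, and Bmp8b rose by 0.25 in each.

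Of 17 other secreted antagonists 8 were tested. In WT 4 rose and 2 fell under starvation, in RA 3 rose and 3 fell, and the interaction was positive for 5 and negative for 1, beside the same background of 78.6%, 68.7% and 50.6%. Dcn, which encodes the matrix proteoglycan decorin and is also on the fibroblast list, rose by 0.30 in WT and by 1.30 in RA (interaction 1.004, limma adjusted p = 1.06e-05). Bmper, a BMP-binding protein, fell by 1.83 in WT and by 1.02 in RA, and Nbl1, a BMP antagonist of the family of gremlin, rose in WT by 0.56 and fell in RA by 0.14 (interaction -0.70, adjusted p = 2.65e-06). Twsg1 fell by 0.46 in WT. Bgn, the proteoglycan biglycan, had an interaction of -0.16 that did not pass the test (adjusted p = 0.072).

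Of 15 genes listed for the latency and activation of TGF-beta, 13 were tested. In WT 11 fell under starvation and none rose (median -1.08), beside 39.2% and 39.3% of all tested genes. In RA 8 fell and 1 rose (median -0.28), beside 33.7% and 35%, and the interaction was positive for 10 of 13 and negative for none, beside 24.5% and 26.1%. Thbs1, which encodes thrombospondin 1, an activator of latent TGF-beta, was 2022 to 2092 in WT kept in normal medium, 95.2 to 101 in starved WT, 2521 to 2585 in RA in normal medium and 1075 to 1079 in starved RA. It fell by 4.38 in WT and by 1.24 in RA on the log2 scale, with an interaction of 3.13 (limma adjusted p = 1.59e-16). Lrrc32, which encodes the surface protein GARP that anchors latent TGF-beta, was 20.4 to 22.6 and 5.66 to 7.31 in WT but 39.1 to 39.7 and 72.7 to 80.6 in RA, in normal and starved cells, with an interaction of 2.54 (adjusted p = 4.93e-11). Fbn1, the microfibril protein fibrillin, fell by 1.83 in WT and by 0.73 in RA, while Ltbp4 had an interaction of -0.03 (adjusted p = 0.776).

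Among receptors and co-receptors 13 of 18 were tested. In WT 4 rose and 9 fell, in RA 3 rose and 8 fell, and the interaction was positive for 6 and negative for 2, beside 78.6%, 68.7% and 50.6% of all tested genes called in WT, in RA and for the interaction. The type I and type II receptors of this group ranged in WT from -1.18 (Tgfbr2) to 2.39 (Bmpr1b). Tgfbr3, the co-receptor betaglycan, was 49.3 to 51.0 and 6.61 to 7.17 in WT and 47.8 to 47.9 and 32.6 to 34.5 in RA, in normal and starved cells. It fell in both lines, by 2.70 in WT and by 0.50 in RA, and its interaction of 2.20 was the largest of this list (limma adjusted p = 2.56e-12). Bambi, a pseudoreceptor, fell by 1.80 in WT and by 0.89 in RA. Tgfbr1, the type I receptor of TGF-beta, rose by 0.86 in WT, and its interaction was -0.71 (adjusted p = 3.18e-05). Acvr2a, a type II receptor of activin, rose by 0.91 in WT and by 0.73 in RA, and Bmpr1b had an interaction of -0.34 (adjusted p = 0.0151).

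The 7 other Smads were all tested and ranged in WT from -1.11 (Smad3) to 0.87 (Smad1). In WT 3 rose and 1 fell, in RA 3 rose and 1 fell, and the interaction was positive for 1 (Smad3, 0.59, limma adjusted p = 7.33e-05) and negative for 3. Of all tested genes 78.6% were called in WT, 68.7% in RA and 50.6% for the interaction. Smad1 had an interaction of -0.47 (adjusted p = 3.05e-05), and Smad9, which rose by 0.84 in WT, one of -0.56 (adjusted p = 0.00415). Smad6, the other inhibitory Smad, had a starvation difference of -0.22 in WT (adjusted p = 0.0532) and an interaction of 0.33 (adjusted p = 0.0589). Of 14 Smad regulators 13 were tested. In WT 9 rose and 3 fell, in RA 9 rose and 2 fell, and the interaction was positive for 4 and negative for 6. The same shares of all tested genes stand beside these counts. The corepressor genes Tgif1 and Skil rose in WT by 1.16 and 0.99, with interactions of -0.45 and -0.33, and Tgif2 fell by 0.36. Ldlrad4, an inhibitor of TGF-beta signalling, fell by 1.54 in WT with an interaction of 1.19 (adjusted p = 1.41e-06), and Nedd4l, a ubiquitin ligase, had one of 0.39 (adjusted p = 0.000196).

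All 13 TGF-beta target genes were tested. In WT 4 rose and 8 fell, in RA 5 rose and 8 fell, and the interaction was positive for 7 and negative for 5, beside 78.6%, 68.7% and 50.6% of all tested genes called in WT, in RA and for the interaction. Ctgf, a matricellular growth factor, fell by 2.003 in WT and by 0.37 in RA (interaction 1.63, limma adjusted p = 3.7e-13), and Tgfbi, an adhesion protein named for its induction by TGF-beta, fell by 2.06 and by 1.05. Tagln, a smooth muscle actin-binding protein, rose by 1.22 in WT and by 0.91 in RA. Tgif1, Skil, Ldlrad4 and Pmepa1 are also on the list of Smad regulators. Of 9 BMP target genes 7 were tested, among them Smad6, also listed with the other Smads, and Bambi, also listed with the receptors. In WT 1 rose and 3 fell, in RA 0 rose and 4 fell, and the interaction was positive for 3 and negative for 1. The same shares of all tested genes stand beside these counts. Id1, which encodes an inhibitor of DNA binding, fell by 0.99 in WT and by 0.19 in RA (interaction 0.81, adjusted p = 4.97e-07), Id2 rose in WT by 0.20 and fell in RA by 0.58 (interaction -0.78, adjusted p = 1.9e-06), and Atoh8 had an interaction of -0.31 (adjusted p = 0.0772).

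Over all tested genes the median log2 change under starvation in WT was 0.01 and the median interaction was -0.01. Beside these, the WT median and the interaction median were -0.47 and 0.01 for the other ligands, 0.17 and 0.30 for the other antagonists, -1.08 and 0.74 for the latency and activation genes, -0.44 and 0.24 for the receptors, 0.10 and -0.08 for the other Smads, 0.48 and -0.11 for the Smad regulators, -0.30 and 0.46 for the TGF-beta targets and -0.22 and 0.23 for the BMP targets. The latency and activation genes thus had the lowest median in WT and the highest interaction median of the 8 lists. Outside these lists, the 9 tested fibroblast markers had a WT median of -0.57 and a higher interaction median, 1.004.

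**Figure D4:**
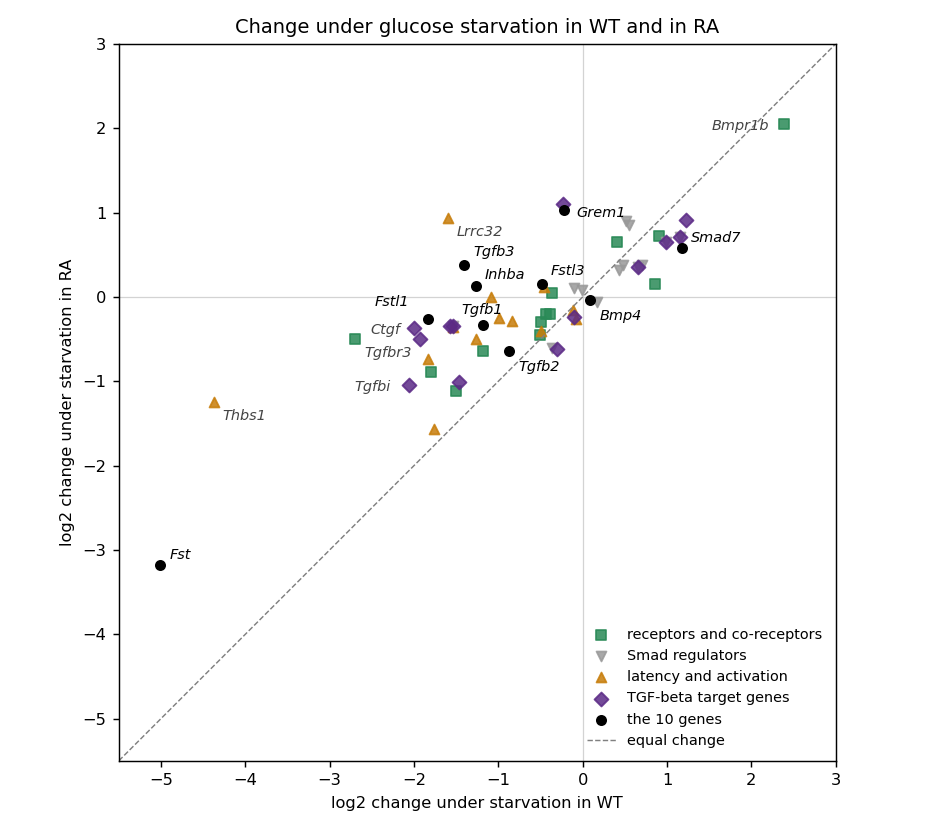
Change under glucose starvation in WT (horizontal axis) and in RA (vertical axis), both as log2 of (scaled CPM + 1), for the 10 genes (black circles) and the tested genes of 4 pathway lists, with a dashed line at equal change. Thbs1 (-4.38 in WT, -1.24 in RA) and Tgfbr3 (-2.70 and -0.50) lie above the line on the same side as Fst (-5.01 and -3.18), and Smad7 (1.17 and 0.59) lies below it.

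The genes whose pattern over the 8 libraries was nearest to each member were taken by the root mean square difference of centred log2 values, as a description. For Fst, whose values span 5.25 on that scale, the nearest were Sfrp2 (0.38), Dkk2 (0.39), Plk1 (0.42), Pif1 (0.43) and Gas1 (0.43). Sfrp2 and Dkk2 encode secreted modulators of Wnt signalling and Plk1 a mitotic kinase. Sfrp2 had means of 84.7 and 3.06 in WT and 73.4 and 11.1 in RA, in normal and starved cells. Fstl1 was nearest to Adm (0.06), Gm28863 (0.06), whose means were almost those of Adm, and Sema5a (0.08). Inhba was nearest to Fam43a, Gm43109 and R74862 (0.06 to 0.09), Tgfb1 to Nol4l, Adgrl2 and Srebf2 (0.05 to 0.06), Tgfb3 to Cd81, Nid2 and Osmr (0.08 to 0.09), Grem1 to Gm26797, Nlrc5 and Parp11 (0.07 to 0.11) and Smad7 to Katna1, Gpatch2l and Meikin (0.04 to 0.05). Cd81 stood at 96.7 and 36.2 in WT and 97.0 and 115 in RA, and Katna1 at 32.6 and 74.1 in WT and 36.4 and 55.7 in RA.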

How the data were processed

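PolyA RNA libraries (TruSeq RNA v2, a kit that does not mark strand) were sequenced as paired ends and, per the labels, mapped with TopHat2 version 2.0.9 to mm9, with bedtools and edgeR also named. The counter, annotation, strand handling and filters are not given in the sources used here. The authors deposited a table in which each value is a signal, reads divided by a scaled library size (CPM). Its columns are named minus and plus, read as normal medium and glucose starvation as the study marks them. In every library 100% of values came out as whole reads (tolerance 0.1 read), so reads were recovered, and 78.2% to 80.5% of counts from 1 to 9 were even, as when both mates are counted. Read counts cover counting error only.

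Rows reaching 1 in 2 or more samples (16232 of 49492) were tested with limma version 3.58.1 in R version 4.3.3 on log2(value + 1), with group means over all 8 samples, 2-sided p-values, eBayes with trend, and Benjamini-Hochberg adjustment per contrast, the threshold for a call being an adjusted p under 0.05. The 5 contrasts were RA less WT in each medium, starvation less normal medium in each line, and the interaction. The members and lists were chosen with earlier results of these data known. All 10 members were named. Of each list, the tested genes with a mean of at least 5 and the highest and lowest change in WT and in the interaction were named (up to 2 each way), with receptors and Smads as ranges. One gene that this rule names is not reported here. Nearest patterns were named by rank, 5 for Fst and 3 for members spanning over 1. Alternatives were the pseudocount (0.25), no filter, total-read and median-ratio scaling, recovered reads tested by edgeR (4.0.16) or by DESeq2 (1.42.0), the replicate block, only the groups compared, and each sample left out. The fits were also run on simulated counts in which a small share of genes was changed, in starved RA only. These data hold far more changed genes, so that run does not measure the error rates here.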

Additional observations from a re-analysis of the deposited data

Results flagged for a closer look

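The response to glucose starvation differed between the 2 lines, by the interaction term of the fit, for 7 of the 9 genes tested for it. The RA response minus the WT response, on the log2 scale, was 1.79 for Tgfb3, 1.57 for Fstl1, 1.40 for Inhba, 1.26 for Grem1, 0.86 for Tgfb1, 0.63 for Fstl3 and -0.59 for Smad7, with limma adjusted p from 1.34e-13 for Fstl1 to 1.86e-05 for Tgfb1. All 7 were called under each of 15 alternatives. Across the genome 50.6% of tested genes were called for the interaction.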

How the results depend on the processing

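The counts of called genes between the starved lines (7 of 9) and for the interaction (7 of 9) were equal under every alternative run. In normal medium the count of 3, which holds Fst as a description only, went to 1 without the filter on low values. It was 2 with total-read scaling, median-ratio scaling, edgeR, DESeq2 and only the groups compared. The count stayed at 3 with the pseudocount of 0.25 and with the replicate block, and was lower whenever a sample was left out. Small differences that never passed the test turned sign: Tgfb3 in normal medium was -0.042 with total-read scaling, -0.012 with median-ratio scaling, -0.005 with edgeR and -0.012 with DESeq2, and Bmp4 there was -0.019 with total-read scaling. With a sample left out, the range was -0.024 to 0.032 for Tgfb3 in normal medium, -0.162 to 0.197 for Bmp4 there, -0.022 to 0.162 for Fstl3, -0.041 to 0.176 for Inhba, -0.092 to 0.120 for Tgfb2 between the starved lines and -0.302 to 0.056 for the interaction of Bmp4. For Fst edgeR gave -5.43 in WT and -3.26 in RA, and 2.40 between the starved lines. Replicate numbers are shared by the groups, but the labels give no pairing, and deviations of same-numbered samples correlated by -0.008 to 0.157. With the replicate number as a block the counts were 3 in normal medium, 7 between the starved lines and 7 for the interaction. When a sample is left out, the lone sample of its group is assumed to vary like the others. The causes of the shifts were not tested.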
